A study of Homo sapiens with 90 samples.

Results

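The 8 PPARA target genes described here are PDK4, CPT1A, ANGPTL4, PLIN2, ACADM, ACADVL, ACSL1 and FABP1. They were chosen by name, and all of their probe sets that the gene table gives a single symbol were taken, which made 17 of the 54613 probe sets tested. PPARA is a nuclear receptor that binds fatty acids and related ligands and, paired with a retinoid X receptor, switches on genes that take up, carry, store and burn fatty acids in liver. In rodents, chlorophenoxy acids are known as peroxisome proliferators, compounds that act through this receptor. The comparisons below ask whether the 8 genes moved with 2,4-D, a chlorophenoxy herbicide, or with the azole fungicides fenbuconazole (a triazole) and imazalil (an imidazole).

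HepG2, an established human liver tumour line, was exposed for 24 h to 1 of the compounds at 9 doses from 0.001 to 10 µM, about 3-fold apart, with 3 arrays per dose. The vehicle, 0.2% DMSO, was in the medium of every group, and 3 DMSO arrays were the common controls of all compounds. Each value is a log2 probe set intensity, where a difference of 1 is a doubling. Since the arrays of each compound were normalized apart, every treated group was set against the copies of the DMSO arrays in its own set. Nothing in the labels says that replicate arrays came from separate cultures, so the p-values measure the spread between these arrays, which may be technical, and their number limits the precision. Array medians lay between 2.95 and 3.15. Of 10 hepatocyte markers 9 were measured, and all 9, among them ALB, APOA1 and AFP, had means of 10.1 to 13.1. The adipocyte markers ADIPOQ, LEP and CIDEA were dim, meaning that the mean of the brightest probe set lay below 3.01, the median of all probe sets (3 of 4 adipocyte markers, range 2.51 to 3.09). Not dim were 3 of 7 mesenchymal markers (ACTA2, COL1A1 and PDGFRB, list range 2.16 to 8.06), 3 of 8 blood and endothelial markers (range 2.66 to 3.49) and 2 of 3 muscle markers (range 2.70 to 3.16).

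Of the 17 probe sets of the target genes, 13 were above that median and 4 were dim. All 3 probe sets of PDK4, a kinase that shuts down pyruvate dehydrogenase and so spares glucose, were dim, so the arrays say little about this gene. The other dim probe set was 1 of 2 for ANGPTL4, 223333_PM_s_at. FABP1, the liver fatty acid carrier, had 2 probe sets well above the median, with means of 10.70 and 6.87. PLIN2, which coats lipid droplets, had 1 bright probe set (mean 9.63) and 1 close to the median (mean 3.07). In the brightest probe sets FABP1 measured 10.62 ± 0.26 with DMSO in the fenbuconazole set, and PLIN2 measured 9.56 ± 0.09 (log2, mean ± SD, n = 3). RNA came from whole wells, so fewer expressing cells and less RNA per cell cannot be told apart in any value below.

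FABP1 was also the 1 gene of the 8 whose promoter window held a half-site of the receptor. RefSeq windows (GRCh38.p14) run from 250 bases before to 50 after a gene's start, and the 8 genes have 13 of them. The half-site AGGTCA, searched on both strands, was in 1 of the 13, against 13.8% of all 35116 windows. A direct repeat of the half-site with any 1 base between its copies was in 0 of the 13 and in 0.0228% of all windows, each of which also counts for the half-site. The last 120 bases before the start of FABP1 (chr2:88128063-88128182, minus strand) are shown to place that match, with the half-site, read on the opposite strand, in capitals.
FABP1: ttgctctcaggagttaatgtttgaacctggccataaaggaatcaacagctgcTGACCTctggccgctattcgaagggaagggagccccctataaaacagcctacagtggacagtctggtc
The capitals lie 63 to 68 bases before the start, and another half-site lies 11 to 16 bases after it. These matches describe letters in a short window and say nothing about binding in these cells.

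At 10 µM, the dose at which most probe sets of the array were called, no probe set of the 8 genes passed the threshold with any compound. In limma 0 of 17 passed an adjusted p of 0.05 with fenbuconazole, where 0.00549% of all probe sets did. The count was 0 of 17 with imazalil, against 0.0403%, and 0 of 17 with 2,4-D, against 0%. At an unadjusted p under 0.05 the counts were 0 of 17 with fenbuconazole (4.36% of all probe sets), 3 with imazalil (5.11%) and 1 with 2,4-D (4.13%). The median log2 difference from DMSO over the 17 was 0.02 with fenbuconazole (10 above DMSO), 0.08 with imazalil (12 above) and -0.02 with 2,4-D (7 above). Over 1 probe set per gene the medians were 0.0071, 0.15 (7 of 8 above) and 0.00054, and leaving out 1 array or replicate moved the imazalil median of the 17 between 0.03 and 0.13. The medians over all probe sets were -0.00031, -0.0050 and -0.00053. These include all dim probe sets, while 13 of the 17 were not dim and the probe set kept per gene was its brightest. The sets compared are therefore unlike in brightness. Over 1 probe set per gene, the 95% intervals of the folds ran no lower than 0.723 and no higher than 1.37 with fenbuconazole, 0.635 and 1.44 with imazalil, and 0.687 and 1.27 with 2,4-D. Across all 17 probe sets the lower bounds were the same, but the upper ones reached 1.65, 1.77 and 1.54.

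**Figure D1:**
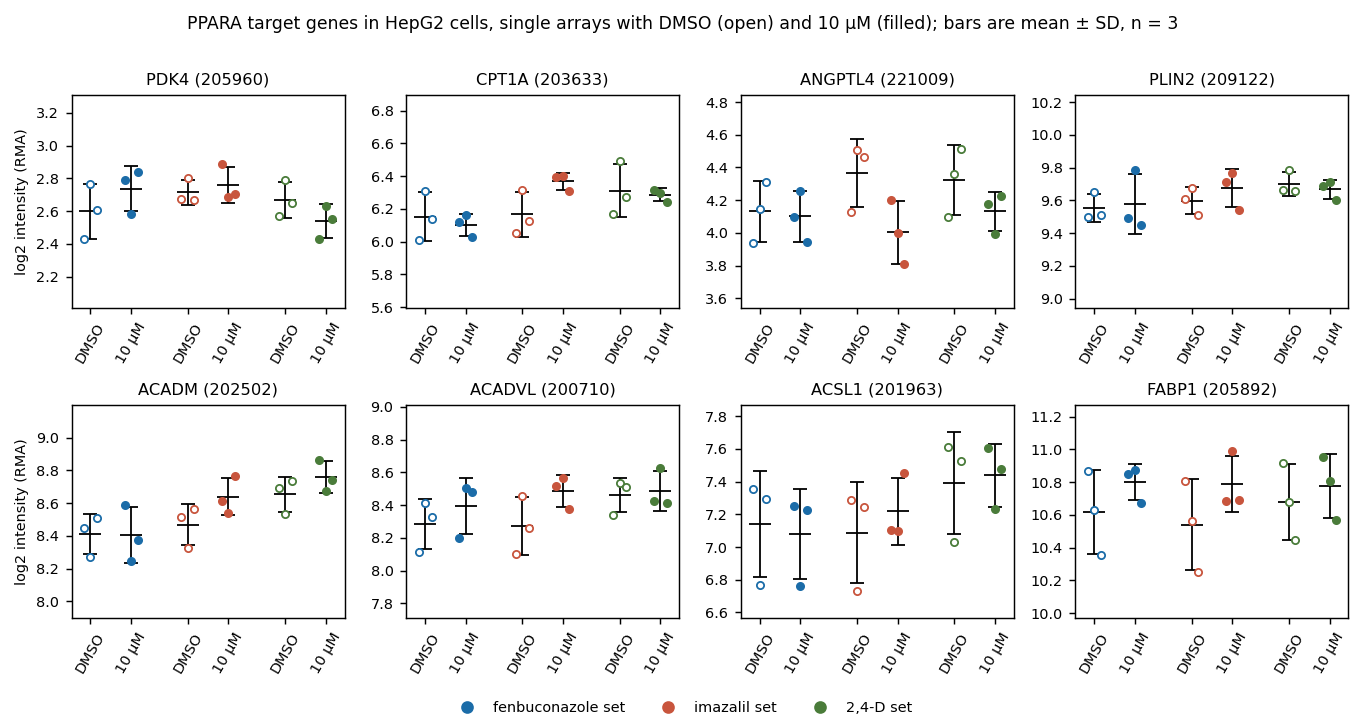
Log2 intensity (y axis) of 1 probe set per gene on each DMSO array (open circles) and each 10 µM array (filled circles) of the 3 sets, with mean ± SD (n = 3). The treated arrays overlap the DMSO arrays in every panel, and the DMSO arrays of ACSL1 span from 6.73 to 7.29 in the imazalil set alone.

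FABP1 and ACSL1 handle fatty acids inside the cell, FABP1 as carrier and ACSL1 as the enzyme that activates long-chain acids to acyl-CoA. FABP1 (205892_PM_s_at) read 10.81, 10.56 and 10.25 on the DMSO arrays of the imazalil set and 10.68, 10.99 and 10.69 at 10 µM imazalil. Only the second treated array lay above all of the DMSO arrays, and the log2 difference was 0.25 ± 0.13 (SE), a fold of 1.19 (95% interval 0.982 to 1.44, adjusted p = 0.975). With fenbuconazole FABP1 read 10.85, 10.88 and 10.67 against 10.87, 10.63 and 10.36 with DMSO, a difference of 0.18 ± 0.13. With 2,4-D it read 10.95, 10.81 and 10.57 against 10.92, 10.68 and 10.45, a difference of 0.10 ± 0.12. Taken as pairs, all 3 of the 2,4-D arrays lay above their same-numbered DMSO arrays, and the adjusted p was 1 with the pairs as a block. In all of these sets the lowest DMSO array was the third one, and the treated groups overlapped the DMSO group. The other FABP1 probe set, 231693_PM_at, differed from DMSO by 0.29 ± 0.25 with imazalil, 0.20 ± 0.23 with fenbuconazole and -0.01 ± 0.14 with 2,4-D.

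ACSL1 (201963_PM_at) read 7.35, 6.77 and 7.30 with DMSO and 7.25, 6.76 and 7.23 at 10 µM fenbuconazole, so that the second array was low in both groups. The difference was -0.06 ± 0.19. At 10 µM 2,4-D the readings were 7.60, 7.23 and 7.48 against 7.61, 7.03 and 7.53, with the same low second arrays and a difference of 0.05 ± 0.14. At 10 µM imazalil the second array was not low, the readings were 7.10, 7.10 and 7.45 against 7.29, 6.73 and 7.25, and the difference was 0.13 ± 0.17. The spread between replicate arrays was larger than every one of these differences. A second ACSL1 probe set, 207275_PM_s_at, had DMSO arrays much closer together (SD 0.05 to 0.10) and lay below DMSO with each compound, by 0.08 ± 0.11, 0.02 ± 0.12 and 0.09 ± 0.11 on the log2 scale with fenbuconazole, imazalil and 2,4-D.

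CPT1A, the enzyme that admits long-chain fatty acids to the mitochondrion and the control point of their oxidation, has 4 probe sets here. The brightest, 203633_PM_at, read 6.06, 6.32 and 6.12 with DMSO and 6.40, 6.40 and 6.31 at 10 µM imazalil. The treated arrays were the closer together, and only the lowest of them lay below the highest DMSO array. The log2 difference was 0.20 ± 0.12, a fold of 1.15 (95% interval 0.970 to 1.37, adjusted p = 0.975). A dimmer CPT1A probe set, 210688_PM_s_at, gave the lowest adjusted p of any target gene against DMSO. It read 3.56, 3.53 and 3.70 with DMSO and 4.19, 4.05 and 4.09 at 10 µM imazalil, groups that did not overlap. The log2 difference was 0.51 ± 0.15, a fold of 1.43 (95% interval 1.15 to 1.77, adjusted p = 0.694). At 10 µM the groups did not overlap for 1 of 17 probe sets with imazalil, 1 with 2,4-D and 0 with fenbuconazole. The share over all probe sets was not computed, so non-overlap does not set this probe set apart. The other probe sets of CPT1A lay closer to DMSO with imazalil, at 0.17 ± 0.20 (203634_PM_s_at) and 0.03 ± 0.14 (210687_PM_at). With fenbuconazole and 2,4-D the brightest probe set read 0.05 ± 0.11 and 0.02 ± 0.10 below DMSO on the log2 scale, while 210688_PM_s_at lay 0.27 ± 0.22 and 0.25 ± 0.18 above it. At 10 µM 2,4-D this dimmer probe set read 3.87, 3.84 and 3.84, all above the highest DMSO array of its set (3.75) and so above the same-numbered one in 3 of 3 pairs.

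ACADM and ACADVL encode the acyl-CoA dehydrogenases that take the first step of the oxidation spiral for medium-chain and very long-chain fatty acids, and each has 1 probe set. ACADVL (200710_PM_at) read 8.10, 8.46 and 8.26 with DMSO and 8.52, 8.57 and 8.38 at 10 µM imazalil. Its log2 difference was 0.21 ± 0.10, a fold of 1.16 (95% interval 1.00 to 1.34, adjusted p = 0.973). The first and second treated arrays lay above all DMSO arrays and the third among them. With fenbuconazole it lay 0.11 ± 0.09 and with 2,4-D 0.03 ± 0.09 above DMSO. ACADM (202502_PM_at) read 8.51, 8.33 and 8.56 with DMSO and 8.61, 8.54 and 8.77 at 10 µM imazalil, a difference of 0.17 ± 0.12. At 10 µM 2,4-D it read 8.86, 8.67 and 8.74 against 8.69, 8.53 and 8.73, above the same-numbered DMSO array in 3 of 3 pairs, with a difference of 0.11 ± 0.09 and an adjusted p of 1 with the pairs as a block. The fenbuconazole difference of ACADM was -0.01 ± 0.13. None of these differences passed the threshold.

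PLIN2, the lipid droplet coat protein, lay close to DMSO in its bright probe set. That probe set, 209122_PM_at, read 9.66, 9.78 and 9.66 with DMSO and 9.69, 9.71 and 9.60 at 10 µM 2,4-D, a difference of -0.03 ± 0.10 and a fold of 0.978 (95% interval 0.846 to 1.13). With imazalil the difference was 0.08 ± 0.08 and with fenbuconazole 0.02 ± 0.10. The weak second probe set of PLIN2, 215895_PM_x_at, read 3.09, 2.86 and 3.04 with DMSO and 2.69, 2.99 and 2.46 at 10 µM 2,4-D. Its difference was -0.28 ± 0.11 (adjusted p = 1), with the second treated array inside the DMSO range.

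ANGPTL4, a secreted inhibitor of lipoprotein lipase, read 4.13, 4.51 and 4.46 with DMSO and 4.20, 4.00 and 3.81 at 10 µM imazalil (221009_PM_s_at). The first treated array lay within the DMSO range and the other two below it, and the log2 difference was -0.36 ± 0.14, a fold of 0.778 (95% interval 0.635 to 0.955, adjusted p = 0.958). With 2,4-D the readings were 4.17, 4.00 and 4.22 against 4.10, 4.36 and 4.51, a difference of -0.19 ± 0.17. With fenbuconazole they were 4.10, 4.26 and 3.95 against 3.94, 4.15 and 4.31, a difference of -0.03 ± 0.21. The dim second probe set of ANGPTL4 differed from DMSO by -0.02 ± 0.14 with imazalil. PDK4 (205960_PM_at) differed by 0.14 ± 0.12 with fenbuconazole, 0.05 ± 0.10 with imazalil and -0.13 ± 0.11 with 2,4-D, all among dim values between 2.43 and 2.89.

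**Figure D2:**
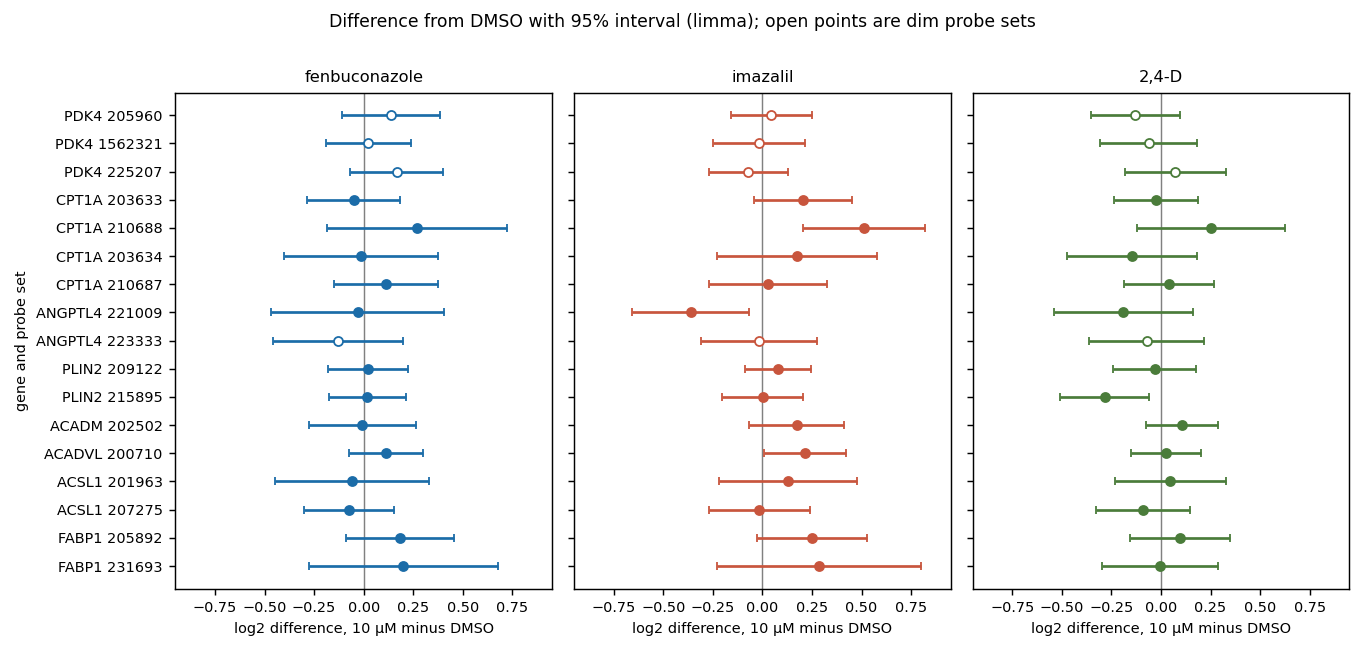
Log2 difference between 10 µM and DMSO (x axis) of the 17 probe sets (y axis) with 95% intervals from limma, for each compound, with dim probe sets as open circles. Intervals that miss 0 belong to CPT1A 210688_PM_s_at, ANGPTL4 221009_PM_s_at and ACADVL with imazalil and to PLIN2 215895_PM_x_at with 2,4-D, and none of these passed after adjustment.

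Below 10 µM the target genes gave no call either. Over all 27 contrasts of a dose against DMSO, 0 of 459 tests of the 17 probe sets passed, with 26 (5.66%) at an unadjusted p under 0.05 against 3.85% of all tests. At 3 µM imazalil 0.00183% of all probe sets were called, and at every other dose below 10 µM the share was 0% for each compound. By compound, 2 of 153 tests had an unadjusted p under 0.05 with fenbuconazole, 13 with imazalil and 11 with 2,4-D. Of those 26 tests 7 were of ANGPTL4 221009_PM_s_at and 7 of CPT1A 210688_PM_s_at. All of these contrasts use the same 3 DMSO arrays, so they are not independent of each other.

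For some of the 8 genes nearly all contrasts lay on 1 side of these controls. All contrasts subtract the same DMSO arrays, and the share of all probe sets so placed was not computed. The counts therefore do not set these genes apart from the rest of the array. The brighter ANGPTL4 probe set lay below DMSO in 25 of 27 contrasts, with a median difference of -0.26, at the lowest doses as well as the highest. The lowest group means were those of 1 µM 2,4-D (arrays of 3.94, 3.66 and 3.74) and 0.03 µM imazalil (3.65, 3.95 and 3.82), and neither group overlapped its DMSO group. Both groups were picked as the lowest of 27, so their lack of overlap is no separate support. Their differences were -0.54 ± 0.17 and -0.56 ± 0.14, while the 10 µM groups of the same compounds lay nearer to DMSO. CPT1A 210688_PM_s_at lay above DMSO in 26 of 27 contrasts, with a median of 0.28 and its highest value, 0.60 ± 0.22, at 0.01 µM fenbuconazole, where the arrays read 4.39, 3.60 and 4.09. The other CPT1A probe sets did not share this, since the brightest lay below DMSO in 19 of 27 contrasts (median -0.04), 203634_PM_s_at below in 23 (median -0.10) and 210687_PM_at above in 19 (median 0.09). FABP1 lay above DMSO in 25 of 27 and ACADM in 24 of 27, with medians of 0.10 and 0.09. PLIN2, by comparison, stayed between -0.07 and 0.11 of DMSO in all 27.

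**Figure D3:**
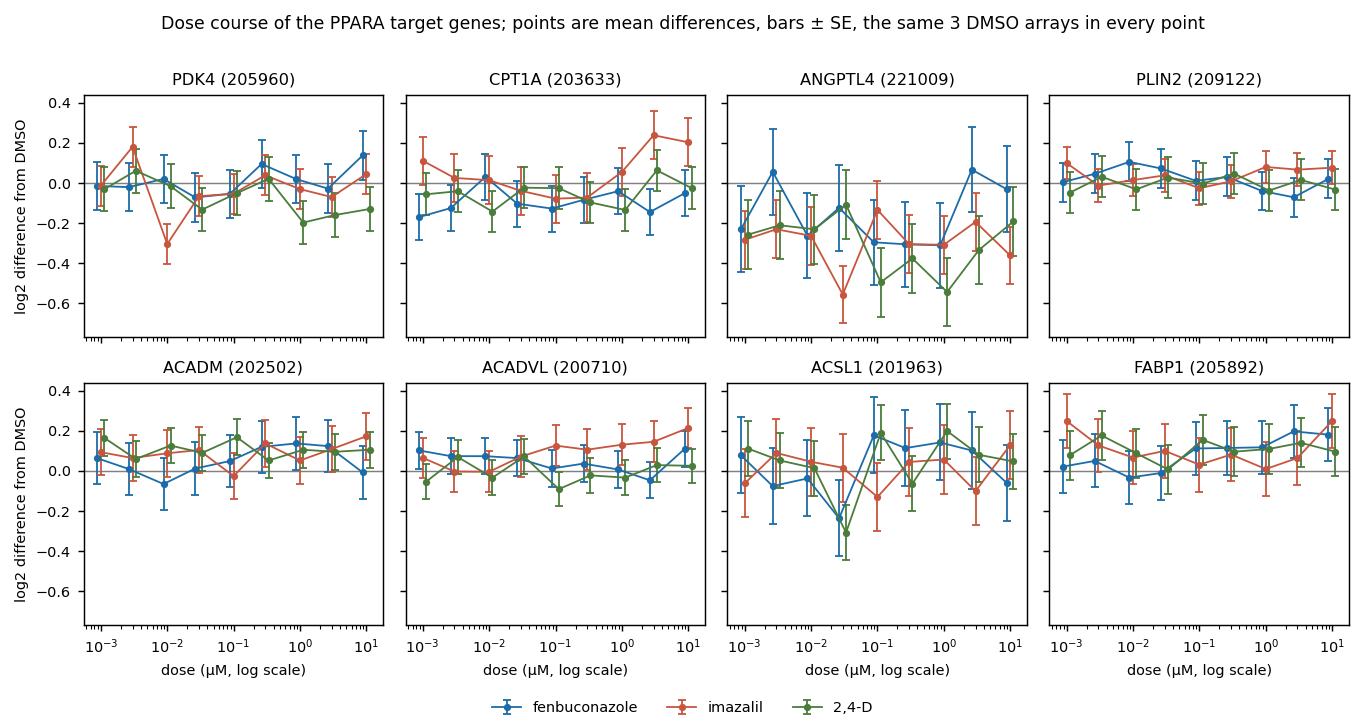
Mean log2 difference from DMSO (y axis, bars ± SE) against dose in µM (log x axis) for 1 probe set per gene and the 3 compounds. ANGPTL4 lies below 0 at 25 of 27 points from the lowest dose on, PLIN2 stays within -0.07 to 0.11, and ACADVL with imazalil goes from 0.07 at 0.001 µM to 0.21 at 10 µM.

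Tests that do not rest on the DMSO arrays, or that pool the doses, gave 0 calls among the 17 probe sets for each compound. The moderated F test over the 9 doses called 0.00549% of all probe sets with fenbuconazole, 0.0201% with imazalil and 0% with 2,4-D. At an unadjusted p under 0.05 it had 0, 3 and 0 members, against 3.44%, 4.31% and 5.04% of all probe sets. The slope over the treated arrays called 0.011%, 0.0256% and 0% of all probe sets. At an unadjusted p under 0.05 it had 1, 3 and 2 members, against 6.06%, 6% and 4.78%. The contrast of 10 µM with the mean of the 3 lowest doses called 0.0256%, 0.0952% and 0%, and at an unadjusted p under 0.05 it had 0, 2 and 1 members, against 5.13%, 6.08% and 4.21%.

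The lowest adjusted p among the slopes of the 17 probe sets was that of ACADVL with imazalil. Its group means were 8.34, 8.27, 8.27, 8.34, 8.40, 8.38, 8.40, 8.42 and 8.49 from 0.001 to 10 µM. The slope was 0.05 ± 0.02 (log2 per 10-fold dose, adjusted p = 0.65), and 10 µM lay 0.20 ± 0.08 above the 3 lowest doses (adjusted p = 0.769). FABP1 with fenbuconazole had a slope of 0.05 ± 0.02 (adjusted p = 0.776), with arrays of 10.77, 10.73 and 10.43 at 0.001 µM and of 10.85, 10.88 and 10.67 at 10 µM. CPT1A 203634_PM_s_at with imazalil read 3.65, 3.76 and 3.61 at 10 µM. Of the 3 lowest doses it read 3.05, 3.37 and 3.26 at 0.001 µM, 3.89, 3.68 and 3.36 at 0.003 µM and 2.90, 2.78 and 2.99 at 0.01 µM, so that the group at 0.003 µM (mean 3.64) was close to that at 10 µM (mean 3.68) and DMSO lay at 3.50. Its difference between 10 µM and the 3 lowest doses was 0.42 ± 0.16 (adjusted p = 0.719). The slope of the brightest CPT1A probe set with imazalil was 0.04 ± 0.02 (adjusted p = 0.92). With 2,4-D the slopes of PDK4 (205960_PM_at) and CPT1A (203634_PM_s_at) were -0.04 ± 0.02 and -0.07 ± 0.03, each with an adjusted p of 0.996.

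The compounds were compared at the same dose after each array had been set against the mean of its own DMSO columns, in 3 pairs at 9 doses. Of 459 tests of the 17 probe sets 0 passed, and 34 (7.41%) had an unadjusted p under 0.05, against 0.00529% and 6.09% of all tests. At 10 µM imazalil minus fenbuconazole called 0.0128% of all probe sets, 2,4-D minus fenbuconazole 0.0311% and 2,4-D minus imazalil 0.0824%, and 0 of the 17 in each pair. At an unadjusted p under 0.05 the pairs had 2, 2 and 3 of the 17, against 8.75%, 6.31% and 7.79% of all probe sets. CPT1A (203633_PM_at) was 0.25 ± 0.12 higher with imazalil than with fenbuconazole on the log2 scale (95% interval 0.02 to 0.49, adjusted p = 0.541), and 2,4-D minus imazalil was -0.23 ± 0.11 (interval -0.45 to -0.0031, adjusted p = 0.634). ACADVL was 0.19 ± 0.09 lower with 2,4-D than with imazalil (2,4-D minus imazalil -0.19, interval -0.37 to -0.01, adjusted p = 0.619). The weak PLIN2 probe set 215895_PM_x_at was lower with 2,4-D than with fenbuconazole by a log2 difference of -0.30 ± 0.10 (adjusted p = 0.545), while the bright one differed by -0.05 ± 0.10 (interval -0.26 to 0.15). Over 1 probe set per gene the intervals of the 3 pairs reached from -0.72 to 0.55 on the log2 scale, so they do not show that the compounds act alike on these genes.

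At 0.1 µM, 2,4-D minus imazalil had the lowest adjusted p of any comparison of the 8 genes between compounds, 0.23 for ACADVL at -0.22 ± 0.09. ANGPTL4 differed by -0.36 ± 0.16, ACSL1 by 0.32 ± 0.15 and ACADM by 0.19 ± 0.10 in the same contrast. There 3 of 17 members had an unadjusted p under 0.05, against 15.1% of all probe sets, and 0.00732% were called. The interquartile range of the values on an array, its spread, was 3.13 ± 0.04 in the 2,4-D group and 2.93 ± 0.11 in the imazalil group at that dose, against 3.08 ± 0.08 and 3.01 ± 0.09 with DMSO (mean ± SD, n = 3). Its part in this contrast was not tested.

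The brightest probe sets of several target genes moved with that spread from array to array. Within the 27 treated arrays of each set, ACSL1 (201963_PM_at) was higher where the spread was wider (Pearson r = 0.73, 0.74 and 0.71 for fenbuconazole, imazalil and 2,4-D, Spearman rho = 0.75, 0.67 and 0.72, permutation p = 2e-05 for each r, adjusted p = 9.6e-05). Without the 2 arrays farthest from the median spread, r was 0.75, 0.59 and 0.73. ACADM followed it with fenbuconazole (r = 0.82, rho = 0.78, permutation p = 1e-05, the smallest that the permutations can give, adjusted p = 9.6e-05, 0.82 without the 2 farthest). With imazalil ACADM had r = 0.67 (rho = 0.58, permutation p = 0.00011, adjusted p = 0.00044, falling to 0.52 on leaving out the 2 farthest), and its 2,4-D value was 0.32 (rho = 0.28, permutation p = 0.098, adjusted p = 0.16, and again 0.32 on leaving them out). FABP1 had r = 0.55, 0.47 and 0.48 (rho = 0.50, 0.54 and 0.43, permutation p = 0.0028, 0.014 and 0.011, adjusted p = 0.0074, 0.03 and 0.027, and 0.50, 0.57 and 0.36 without the 2 farthest).

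ANGPTL4 and ACADVL ran the other way. ANGPTL4 had r = -0.61, -0.30 and -0.60 (rho = -0.62, -0.42 and -0.59, permutation p = 0.00094, 0.13 and 0.0012, adjusted p = 0.0032, 0.19 and 0.0036, and -0.63, -0.51 and -0.49 without the 2 farthest). ACADVL had r = -0.74, -0.26 and -0.44 (rho = -0.74, -0.25 and -0.39, permutation p = 2e-05, 0.19 and 0.023, adjusted p = 9.6e-05, 0.27 and 0.046, and -0.77, 0.022 and -0.35 without the 2 farthest). PDK4, CPT1A and PLIN2 had no relation with an adjusted p under 0.05 in any set. In all 24 relations, over 1 probe set per gene, were computed and 12 passed. How many of all probe sets follow the spread was not computed, so this count does not set the target genes apart. The other 9 probe sets of these genes gave 27 further relations, adjusted among themselves, and 0 passed. The second ACSL1 probe set, 207275_PM_s_at, had r = -0.041, 0.38 and -0.32 (rho = -0.052, 0.19 and -0.37, permutation p = 0.84, 0.048 and 0.11, adjusted p = 0.94, 0.33 and 0.36), and -0.18, -0.013 and -0.14 without the 2 farthest arrays. The second probe set of FABP1 had r = 0.006, -0.11 and 0.43 (adjusted p = 0.99, 0.85 and 0.29, permutation test), so the relations of ACSL1 and FABP1 rest on 1 probe set each. At 10 µM the spread was 2.96 ± 0.06 with fenbuconazole, 3.06 ± 0.02 with imazalil and 3.06 ± 0.08 with 2,4-D, against 3.01 ± 0.08, 3.01 ± 0.09 and 3.08 ± 0.08 with DMSO. With the spread as a covariate, a fit added after the data had been seen, 0 of the 17 probe sets passed at 10 µM with any compound.

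**Figure D4:**
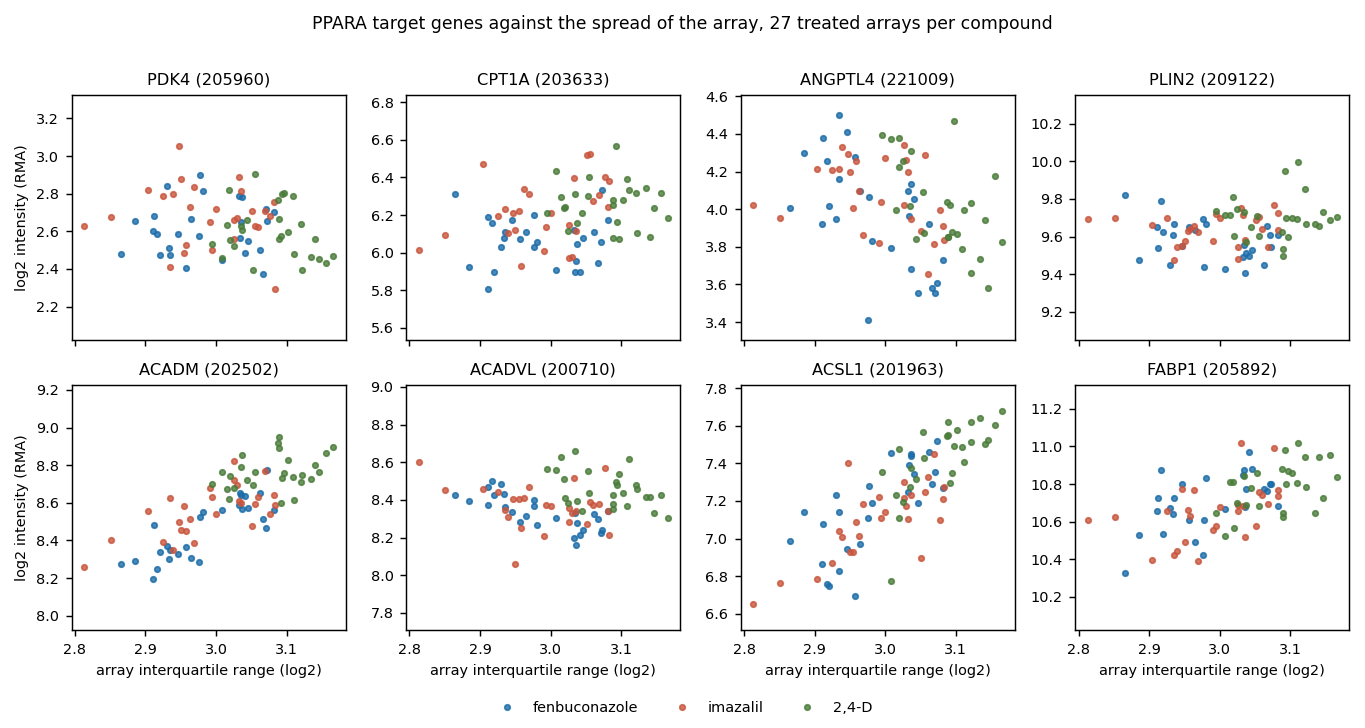
Log2 intensity of 1 probe set per gene (y axis) against the interquartile range of the log2 values on the same array (x axis), 1 point per treated array, 27 per compound. In these probe sets ACSL1, ACADM and FABP1 go up with the spread, ANGPTL4 goes down, and PLIN2 and PDK4 show no clear relation.

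Probe sets of the same gene followed each other weakly. Over the 81 treated columns, centred on the DMSO columns of their set, r between the ACSL1 probe sets was -0.12, between the FABP1 probe sets 0.36, between the ANGPTL4 probe sets 0.24 and between the PLIN2 probe sets 0.07. Among the 4 of CPT1A it ran from -0.13 to 0.42, and among the 3 dim ones of PDK4 from -0.04 to -0.02. These are descriptions over arrays that share DMSO controls and a normalization, with no test. The genes whose pattern was most like a member over the same columns, out of 12481 that were not dim, were XPOT, SEC24D and TCAF1 for ACSL1 (r = 0.878, 0.868 and 0.851). For ACADM they were REST, ATE1 and TLK1 (0.825, 0.82 and 0.817), and for FABP1 NEDD9, PPM1H and A2M (0.723, 0.702 and 0.67). PLIN2 was most like PAAF1, FBL and SLC25A15 (0.691, 0.687 and 0.674), ACADVL like RHBG, VAT1 and FLOT1 (0.667, 0.625 and 0.612), and ANGPTL4 like TMEM147, CDC25A and STX17-DT (0.597, 0.588 and 0.574). The highest values were lower for CPT1A (DPP4, NACA and GIGYF2, 0.542, 0.531 and 0.522) and for PDK4 (CPSF1, CTSA and CD3D, 0.417, 0.402 and 0.397). In the same columns the array spread had r = 0.716 with ACSL1 and 0.667 with ACADM.

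A wider list of 58 genes of the pathway, of which 51 were measured and the others not analysed here, gave the same count. Of their 114 probe sets 0 passed in any contrast against DMSO, over the pooled doses or between compounds. At 10 µM over 1 probe set per gene, 20 of 51 lay above DMSO with fenbuconazole (median -0.02), 36 with imazalil (median 0.07) and 27 with 2,4-D (median 0.01). Over all probe sets 49.9%, 48.37% and 49.76% lay above DMSO. These shares include dim probe sets and several per gene, while the 51 are the brightest of each gene and 6 of them dim, so the sets compared are unlike. An unadjusted p under 0.05 was reached by 0, 5 and 3 of the 51, against 4.36%, 5.11% and 4.13% of all probe sets. PPARA itself was read from 1 of its 8 probe sets, the brightest. That probe set differed from DMSO by 0.06 ± 0.13 with fenbuconazole, 0.26 ± 0.12 with imazalil (adjusted p = 0.967) and -0.03 ± 0.09 with 2,4-D.

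By role, the receptors and cofactors lay above DMSO for 9 of 10 genes with imazalil (median 0.10), 5 with fenbuconazole (0.01) and 6 with 2,4-D (0.01). PPARGC1A, the coactivator of fasting metabolism, was the highest of them with imazalil at 0.34 ± 0.11 (fold 1.26, adjusted p = 0.907). Of 9 peroxisomal genes, 8 lay above DMSO with imazalil (median 0.11), 4 with fenbuconazole (-0.04) and 7 with 2,4-D (0.03). With 2,4-D these peroxisomal genes lay between -0.03 and 0.10 of DMSO. Of 14 genes of mitochondrial oxidation, 10 lay above DMSO with imazalil, 4 with fenbuconazole and 7 with 2,4-D. ETFDH, which passes electrons from fatty acid oxidation to ubiquinone, was the highest with imazalil at 0.52 ± 0.21 (adjusted p = 0.962) and stood at 0.28 ± 0.12 with 2,4-D (adjusted p = 1). CPT2, the partner of CPT1A on the inner membrane, lay at -0.17 ± 0.10 with imazalil, and UCP2, a mitochondrial carrier, at -0.24 ± 0.14 with 2,4-D.

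Among the genes of uptake and activation, ACSL4 differed by 0.50 ± 0.28 with imazalil and the transporter and acyl-CoA synthetase SLC27A2 by -0.23 ± 0.15 with fenbuconazole. The muscle-type carrier FABP3, a dim probe set, stood at 0.21 ± 0.11 with fenbuconazole and -0.17 ± 0.13 with 2,4-D. The 3 microsomal genes lay below DMSO with each compound, but CYP4A22 was dim and CYP4A11, a fatty acid omega-hydroxylase, was weak. CYP4A11, read from 1 of its 3 probe sets (mean 3.55), was the lowest of the whole list with 2,4-D at -0.34 ± 0.15 (fold 0.792, adjusted p = 1). The lipid droplet protein PLIN5 lay at -0.21 ± 0.14 and the kinase PDK2, a relative of PDK4, at -0.20 ± 0.10 with imazalil. BDH1, of ketone body metabolism, was the highest with 2,4-D at 0.29 ± 0.14, and VNN1, the pantetheinase, stood at 0.16 ± 0.16. With fenbuconazole the cofactors NCOA1 and MED1 lay at 0.15 ± 0.14 and 0.13 ± 0.12, and the dim mitochondrial dehydrogenase ACADL at -0.22 ± 0.11. The lowest adjusted p of the whole list at 10 µM was 0.663, with imazalil.

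**Figure D5:**
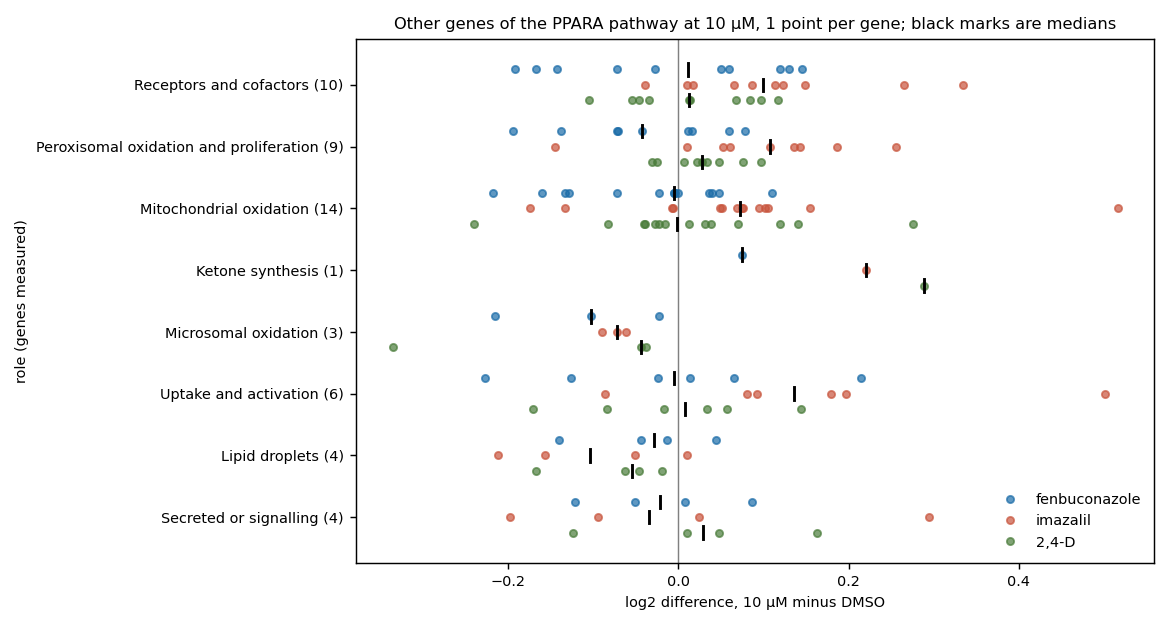
Log2 difference between 10 µM and DMSO (x axis) of 51 other genes of the pathway by role (y axis), 1 point per gene and compound, with black marks at the medians. With imazalil 8 of 9 peroxisomal genes, 9 of 10 receptors and cofactors and 10 of 14 mitochondrial genes lie above 0. So do 5 of 6 genes of uptake and activation and 1 of 1 of ketone synthesis. Fewer do in the other roles: 2 of 4 secreted or signalling, 1 of 4 lipid droplet and 0 of 3 microsomal genes. Of all points 0 passed the threshold.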

How the data were processed

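Log2 probe set intensities of Affymetrix HT HG-U133+ PM arrays were used as deposited. Per the labels, the authors normalized the arrays of each compound apart by RMA, with copies of the DMSO arrays (84 arrays in 90 columns). The submitters' processing notes name RMA and Partek, whose versions are not given in the sources used here. Copies of a DMSO array correlated at r = 0.9986 or higher and different DMSO arrays at 0.9961 or lower. Of 54715 probe sets, 102 controls were left out. Symbols came from the platform's gene table, and the probe set with the highest mean stood for a gene with several.

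Tests used limma 3.58.1 in R 4.3.3 (lmFit and eBayes, 1 mean per group over the 30 columns of a set, two-sided), checked on simulated data, with Benjamini-Hochberg adjustment over 54613 probe sets within a contrast and a threshold of 0.05. Differences between compounds used 54 DMSO-centred columns, and correlations 100000 permutations, adjusted over 24 relations for the brightest probe sets and 27 for the others. In the 2,4-D set, same-numbered DMSO and 10 µM arrays deviated together (r = 0.37, 0.29 and 0.16). Over all pairs of groups in that set the median r was 0.05 for same-numbered and -0.03 for other-numbered arrays. With fenbuconazole these medians were 0.04 and -0.03. The labels give no pairing, so counts of same-numbered pairs are descriptions only.

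The members, lists and tests were chosen with earlier results of these data known. Of the wider list, the 3 highest and 3 lowest genes per compound are named, and PPARA was added after its values were seen. Alternatives were 1 probe set per gene, no dim probe sets, joint quantile normalization, a replicate block, trended robust variances, the 2 groups alone, each array or replicate left out, and the array spread as a covariate.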

Additional observations from a re-analysis of the deposited data

How the results depend on the processing

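No call among the 17 probe sets depended on the processing: all 138 counts of called members under alternatives were 0, as were the main ones, so no target gene gained or lost a call. Over all probe sets, 3 were called at 10 µM fenbuconazole and 22 at 10 µM imazalil. These became 0 and 4 with the 2 groups fitted alone and 14 and 38 with trended robust variances, and fenbuconazole had 5 with the array spread as a covariate. Leaving out 1 array or replicate gave 0 to 4 with fenbuconazole and 3 to 13 with imazalil. With a replicate block the counts were 3, 25 and 0 for fenbuconazole, imazalil and 2,4-D, and no call of a target gene changed. Same-numbered arrays correlated at 0.34, 0.18 and 0.08 with fenbuconazole and at -0.12, 0.06 and 0.14 with imazalil, and there the numbers were not taken as pairs. The fenbuconazole values were all positive too, so the line between that set and the 2,4-D set is not sharp.

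The median log2 difference of the target genes at 10 µM imazalil was 0.1514 over 1 probe set per gene and 0.1731 without dim probe sets, and with 2,4-D it was 0.0005 over 1 probe set per gene. Leaving out 1 array or replicate moved it between 0.0334 and 0.1284 with imazalil and between -0.0605 and 0.0583 with 2,4-D. With fenbuconazole ACADM turned to 0.0803 and ACSL1 to 0.0785 with the array spread as a covariate, PLIN2 to -0.0062, and ACADM to 0.0085 under joint quantile normalization. Directions also turned when 1 array or replicate was left out, and the cause was not tested. With fenbuconazole the ranges were -0.0992 to 0.0702 for ACADM, -0.2448 to 0.1007 for ACSL1, -0.1263 to 0.1361 for ANGPTL4, -0.1318 to 0.0284 for CPT1A and -0.0843 to 0.0840 for PLIN2. With imazalil they were -0.0495 to 0.2859 for ACSL1 and -0.0404 to 0.1284 for PDK4. With 2,4-D they were -0.0442 to 0.0881 for ACADVL, -0.1313 to 0.1580 for ACSL1, -0.1105 to 0.0647 for CPT1A, -0.0196 to 0.2137 for FABP1 and -0.0612 to 0.0084 for PLIN2. CPT1A, ANGPTL4, FABP1, ACADM, ACADVL and PLIN2 kept their direction with imazalil under every alternative run. With fenbuconazole PDK4, ACADVL and FABP1 did so, and with 2,4-D PDK4, ANGPTL4 and ACADM. The direction turned for 2 genes with imazalil and for 5 with each other compound. Every alternative used the same arrays or a part of them, so a kept direction is no separate support. The low signal of its 3 probe sets limits what can be said of PDK4.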
